A study of Mus musculus with 6 samples.

Results

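Keratins are the intermediate filament proteins of epithelia. The 8 keratin genes described here are those of simple, single-layered epithelia (Krt7, Krt8, Krt18, Krt19 and Krt20) and, beside them, keratins of the basal layer of stratified epithelia (Krt5 and Krt14) and of regenerating epidermis and skin appendages (Krt17). They were listed by name, with earlier results of these arrays known. Where a gene had several single-gene probe sets, the one read was chosen by its mean log2 signal over the 6 arrays, the highest being taken. Each of the 8 had only 1, so that choice removed nothing, and all 8 were among the 19938 genes measured. No filter on low signal was applied.

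The arrays hold RNA of the mouse embryonic stem (ES) line HM1, grown in 15% serum with leukemia inhibitory factor (LIF) at 1000 U/ml. The control group (3 arrays) was transfected with the empty puromycin-resistance plasmid pCAGIP.puro and the overexpression group (3 arrays) with the same plasmid carrying mouse Prmt6, an arginine methyltransferase that modifies histones. Both groups were selected with puromycin (1 ug/ml, 3 days) and hybridised from 5 ug of total RNA, 1 sample to an array, so each sample is a selected population of transfected cells and not a clone. Whether the replicates are separate transfections is not given in the sources used here, so a p-value sets a difference against the spread of these samples only, and that spread may be technical.

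Keratin filaments are built from obligate pairs of a type I and a type II chain, and a chain without a partner is unstable. Krt8 (type II) with Krt18 (type I) is the founding pair of simple epithelia and the first to appear in the mouse embryo, where trophectoderm and extraembryonic endoderm carry it. Krt7 and Krt19 are added in ducts, trophoblast and mesothelium, and Krt20 marks gut epithelium and urothelial surface cells. ES cells are derived from the inner cell mass, which forms no keratin network, though cultured ES cells can express Krt8 and Krt18 at a low level.

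With the Prmt6 plasmid, the 4 core simple-epithelial keratins rose 5.07-fold to 9.34-fold, in the order Krt18, Krt8, Krt19 and Krt7. Krt20 and the basal keratin Krt14 also passed, with differences in log2 signal of 0.75 and 0.48. Their control signal was within the range of unexpressed genes (Krt20) or 0.03 above it (Krt14), so no fold is given for them. Krt17 and Krt5 did not pass the test, at 0.25 and -0.20 on the log2 scale. So 6 of the 8 were higher and 2 did not pass at an adjusted p under 0.05 (limma, all genes), where 7.05% of all genes were called higher and 3.25% lower. The list was drawn up with such results in view, so that count is a description of it. Of the other 44 keratin genes measured, 0 passed with limma and 5 had an unadjusted p under 0.05, as 24.5% of all genes had.

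The targeted gene was read first as a check of the labels. Its log2 signals were 6.84, 6.58 and 7.12 in control and 7.32, 7.40 and 7.33 with the Prmt6 plasmid. The groups did not overlap, and the difference was 0.50 ± 0.127 (SE, n = 3 per group, adjusted p = 0.0406). Its call ended without any 1 array other than control replicate 3 (adjusted p from 0.0788 to 0.119) and with the replicate number as a block (0.0615). Where its probes lie relative to the cloned insert was not analysed here.

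The 250 bases before the start given in the promoter table are shown for Krt8 and Krt18, neighbours on chromosome 15 with the largest rises of the 8, for Krt7, which rose on the same chromosome, and for Krt5 there, which did not pass. They are from RefSeq (GRCm38.p6), read 5′ to 3′ on the strand of the gene. Of the 8 genes, 6 matched an entry, and Krt19 and Krt17 did not. Capitals mark matches, on either strand, to 6 short motifs. The motifs searched were the core promoter element TATAAA, the NF-Y site CCAAT, the Sp factor site GGGCGG, the AP-1 site TGANTCA, the Tead site CATTCC and the Ets core GGAAG. No matches overlapped each other in these 4 windows.
Krt8 (chr15:102004343-102004592, minus strand): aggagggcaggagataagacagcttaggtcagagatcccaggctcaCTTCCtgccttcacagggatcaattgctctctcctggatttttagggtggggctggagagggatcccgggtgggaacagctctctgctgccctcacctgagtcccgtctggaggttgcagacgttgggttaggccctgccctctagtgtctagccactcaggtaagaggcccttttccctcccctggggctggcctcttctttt
Krt18 (chr15:102027966-102028215, plus strand): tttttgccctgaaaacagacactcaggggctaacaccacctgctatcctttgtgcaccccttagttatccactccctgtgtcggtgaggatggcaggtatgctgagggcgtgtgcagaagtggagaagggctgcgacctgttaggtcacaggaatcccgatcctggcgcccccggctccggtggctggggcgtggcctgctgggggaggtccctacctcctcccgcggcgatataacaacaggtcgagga
Krt7 (chr15:101412153-101412402, plus strand): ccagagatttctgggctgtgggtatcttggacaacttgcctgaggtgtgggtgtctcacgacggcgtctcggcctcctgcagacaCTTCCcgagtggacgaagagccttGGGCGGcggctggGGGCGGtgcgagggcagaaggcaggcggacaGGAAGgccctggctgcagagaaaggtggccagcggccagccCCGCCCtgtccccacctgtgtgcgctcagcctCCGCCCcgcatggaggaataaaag
Krt5 (chr15:101712906-101713155, minus strand): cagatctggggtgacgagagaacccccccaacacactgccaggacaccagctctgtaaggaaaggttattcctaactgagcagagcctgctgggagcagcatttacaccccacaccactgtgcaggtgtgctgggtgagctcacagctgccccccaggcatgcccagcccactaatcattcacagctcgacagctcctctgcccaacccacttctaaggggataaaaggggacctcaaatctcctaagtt

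The Krt7 window held 4 matches to GGGCGG, a motif present in 32.7% of 32851 promoter windows of the same length, and 2 to GGAAG (64.1%). The Krt8 window held 1 match to GGAAG, and the windows of Krt18 and Krt5 held 0 matches to any of the 6. Of the windows not shown, that of Krt20 held 1 TATAAA (12.4% of windows), 3 CATTCC (12.6%) and 3 GGAAG, and that of Krt14 held 1 CATTCC. The Krt14 window lies inside the gene's annotated span and not before its outer end, unlike the other 5. The AP-1 site TGANTCA (6.75%) and the NF-Y site CCAAT (33.8%) were found in 0 of the 6 windows. No motif of the 6 was present in all 3 windows shown of genes that rose.

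Krt18, the type I chain of the founding pair (probe set 10427075, chromosome 15), read 8.23, 8.20 and 8.26 in control and 11.46, 11.39 and 11.51 in overexpression, as log2 signal. The arrays of each group lay within 0.06 and 0.12 of each other, and the lowest overexpression array was 3.13 above the highest control array. The difference was 3.22 ± 0.0699 (SE, adjusted p = 2.12e-07), the 4th largest rise of all 19938 genes.

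Krt8, its type II partner (probe set 10432918, chromosome 15), read 9.11, 9.01 and 9.06 in control and 12.10, 11.85 and 11.91 in overexpression. Overexpression replicate 1 was the highest array, and a gap of 2.74 separated the groups. The difference was 2.89 ± 0.0852 (adjusted p = 7.02e-07), the 8th largest rise. Both genes of this pair were already well above the dim end of the arrays in control cells. The central 95% of the 1027 olfactory receptor genes, a family that ES cells are not known to use, ran from 1.83 to 5.23 in control and from 1.85 to 5.17 in overexpression, and control Krt8 and Krt18 were 3.83 and 3.00 above that range.

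Krt19, a type I keratin with a very short tail domain that can stand in for Krt18 in simple epithelia (probe set 10391036, chromosome 11), read 6.90, 7.02 and 7.05 in control and 9.65, 9.49 and 9.65 in overexpression. The groups were 2.44 apart. The difference was 2.61 ± 0.0807 (adjusted p = 9.26e-07), the 13th largest rise.

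Krt7, a type II keratin of ducts, trophoblast and mesothelium (probe set 10427052, chromosome 15), read 6.15, 5.76 and 5.84 in control and 8.24, 8.16 and 8.38 in overexpression. Control replicate 1 was the highest control array, and the lowest overexpression array was still 2.01 above it. The difference was 2.34 ± 0.113 (adjusted p = 7.14e-06), the 16th largest rise. In control cells Krt7 was 0.69 above the range of the olfactory receptor genes and Krt19 1.76 above it.

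Krt20, the type I keratin of gut epithelium (probe set 10390850, chromosome 11), read 4.61, 4.33 and 4.49 in control and 5.50, 5.14 and 5.05 in overexpression. All 3 overexpression arrays were higher, replicate 1 by the most, and the groups were 0.44 apart. The difference was 0.75 ± 0.128 (adjusted p = 0.00718). The control mean of 4.48 lay within the olfactory receptor range and the overexpression mean of 5.23 was 0.06 above it, so the level of Krt20 is not told apart from that of unexpressed genes in control.

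Krt14, the type I keratin of basal epidermis (probe set 10391052, chromosome 11), read 5.16, 5.29 and 5.33 in control and 5.85, 5.66 and 5.70 in overexpression. The groups were 0.33 apart, a gap larger than the spread within either group. The difference was 0.48 ± 0.0837 (adjusted p = 0.00843), with means 0.03 and 0.56 above the olfactory receptor range. Of all genes, 17.0% had 3 overexpression arrays above the 3 control arrays, as 6 of the 8 keratins had, and 12.7% had them below.

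Krt17, a type I keratin induced in wounded epidermis (probe set 10391066, chromosome 11), read 5.70, 5.74 and 5.37 in control and 5.95, 5.59 and 6.01 in overexpression. The groups overlapped through overexpression replicate 2, and the 95% interval of the difference ran from -0.07 to 0.56 (adjusted p = 0.321). The means of Krt17 were 0.38 (control) and 0.68 (overexpression) above the olfactory receptor range. Krt5, the type II partner of Krt14 (probe set 10432785, chromosome 15), read 4.95, 4.87 and 4.76 in control and 4.28, 4.76 and 4.93 in overexpression. Its overexpression arrays spread over 0.65 and overlapped the controls, the interval ran from -0.56 to 0.15 (adjusted p = 0.48), and both group means lay within the olfactory receptor range. Neither interval reached the rises of the 4 core keratins. The upper bound for Krt5 lies below the lower bound of 0.29 for Krt14. With Krt5 in the olfactory receptor range, that measures no balance between the 2 chains.

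**Figure D1:**
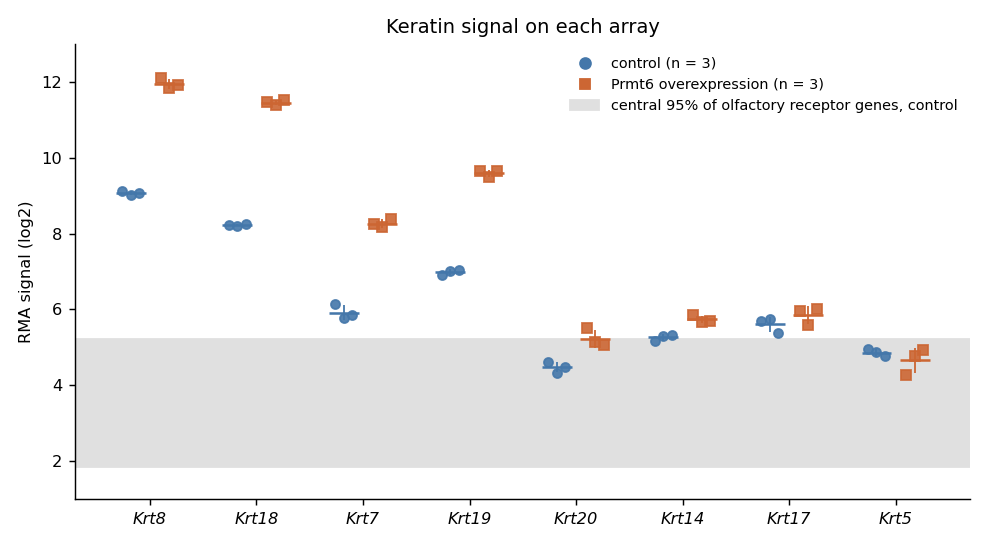
Log2 RMA signal (vertical axis) of the 8 keratins (horizontal axis) on each array. Circles are the 3 control arrays and squares the 3 Prmt6 overexpression arrays, horizontal bars are means and vertical bars SD, and the grey band is the central 95% of olfactory receptor genes in control, 1.83 to 5.23; the groups are 2.01 to 3.13 apart for Krt8, Krt18, Krt7 and Krt19 and overlap for Krt17 and Krt5.

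**Figure D2:**
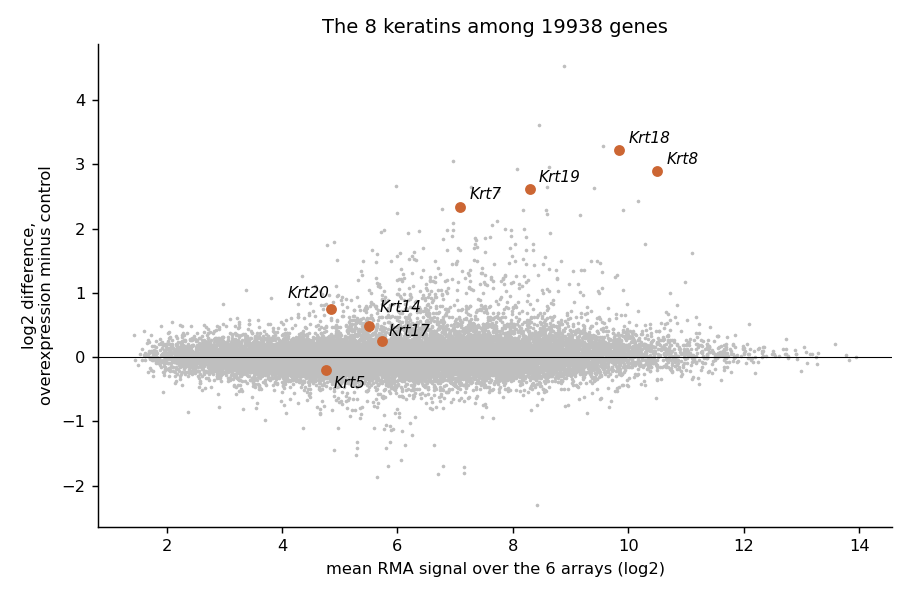
Mean log2 signal over the 6 arrays (horizontal axis) against the log2 difference, overexpression minus control (vertical axis), for 19938 genes in grey and the 8 keratins in orange. Krt18, Krt8, Krt19 and Krt7 lie among the largest rises, from 3.22 to 2.34, while Krt17 (0.25) and Krt5 (-0.20) lie in the cloud of other genes.

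Rises of at least 4-fold that passed the test numbered 27 of 19938 genes (0.135%), and 4 of these were Krt18, Krt8, Krt19 and Krt7. Among the 4, the 95% intervals of the log2 difference were 3.06 to 3.38 for Krt18, 2.70 to 3.09 for Krt8, 2.42 to 2.79 for Krt19 and 2.08 to 2.60 for Krt7. Each interval overlapped that of the next in order, while that of Krt18 did not reach those of Krt19 and Krt7. Across the alternatives tried, the differences kept within 3.17 to 3.27 for Krt18, 2.82 to 2.94 for Krt8, 2.56 to 2.66 for Krt19 and 2.27 to 2.46 for Krt7.

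Because the chains pair, the balance within an array was compared for 3 type II and type I pairs. A within-array difference of log2 signals carries the probes' own brightness, so its change between the groups was read and not its level. The change also depends on how each probe set responds to its transcript, which was not tested. Control Krt7 was 0.69 above the olfactory receptor range and control Krt19 1.76 above it. An unequal change is therefore one of signal and is not shown to be one of transcript. Krt8 minus Krt18 was 0.88, 0.81 and 0.80 in control and 0.64, 0.46 and 0.40 in overexpression. It was lower in all 3 overexpression arrays, and its mean changed by -0.33 on the log2 scale. Krt7 minus Krt19 was -0.75, -1.26 and -1.21 in control and -1.41, -1.33 and -1.27 in overexpression, a change of -0.26 with the groups only just apart. Control replicate 1 stood above the other controls, and without it the change was -0.10. Krt5 minus Krt14 was -0.21, -0.42 and -0.57 in control and -1.57, -0.90 and -0.77 in overexpression, with overexpression replicate 1 the lowest. Krt5 lay within the olfactory receptor range in both groups, so these values do not measure a balance between the chains of that pair. The exact permutation test, two-sided, gave p = 0.1 for each pair, the smallest that 3 against 3 arrays allow (0.1 adjusted over the 3 pairs).

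**Figure D3:**
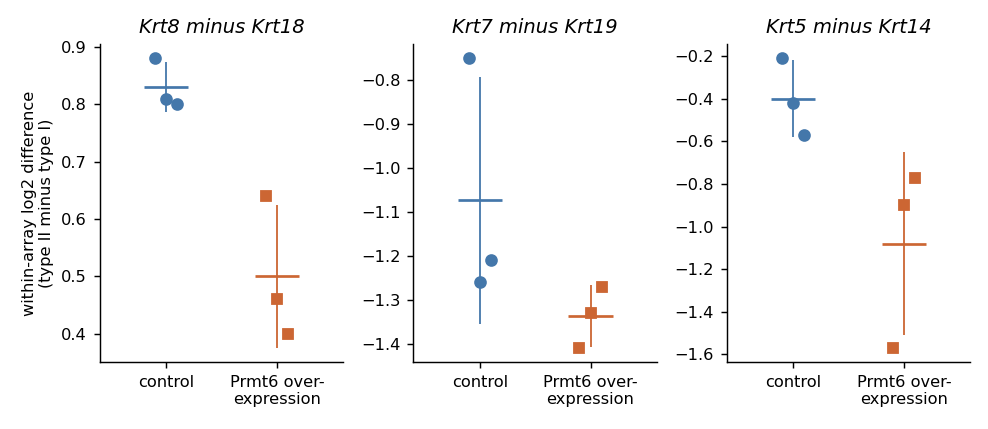
Within-array log2 difference, type II minus type I keratin (vertical axes, each with its own scale), in the 3 control arrays (circles) and 3 Prmt6 overexpression arrays (squares), with mean (horizontal bars) and SD (vertical bars). The mean changed by -0.33 for Krt8 and Krt18 and by -0.26 for Krt7 and Krt19 (-0.10 without control replicate 1, the highest control array); Krt5 was within the olfactory receptor range in both groups, so its panel measures no balance of the chains.

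The keratin genes lie in clusters, type I on chromosome 11 and type II on chromosome 15, where Krt18 sits as the type I gene next to Krt8. Of 47 other keratin genes listed, 44 were measured, and Krt81, Krt83 and Krt85 were not on a single-gene probe set. Their median difference was -0.015 on the log2 scale, against 0 for all genes. Their differences ran from -0.34 (Krt39, a hair keratin) to 0.38 (Krt42, a type I keratin). The 23 type I genes had a median of -0.0467 and the 21 type II genes of -0.01. The overexpression arrays were all above the controls in 2 of the 44 and all below in 4, where 17.0% and 12.7% of all genes had them so. In control, 32 of the 44 had means no higher than the top of the olfactory receptor range, and 33 in overexpression, so most of these genes were not told apart from unexpressed ones in either group.

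Genes directly beside the 8 keratins showed no change that passed. Counting protein-coding neighbours by the order of the reference annotation, 12 genes outside the 8 lay next to a member. Of these, 0 passed with limma, where 7.05% of all genes were called higher and 3.25% lower. An unadjusted p under 0.05 was seen for 2 (Krt23 and Krt42), against 24.5% of all genes. The differences of the 12 ran from -0.25 to 0.38. Krt78, Krt9, Krt23, Krt6a, Krt71 and Krt16 had means within the olfactory receptor range in both groups, so their small differences do not show an unchanged level. Krt8 lies between Krt78, a type II keratin gene (-0.01 ± 0.0835), and Krt18, beyond which follows Eif4b, a translation initiation factor gene (0.01, 95% interval -0.15 to 0.17). Krt19 lies between Krt15, a basal keratin gene (-0.17 ± 0.0969), and Krt9, a palm and sole keratin gene (0.13 ± 0.0876). Krt7 lies between Krt80 and Krt87, with intervals of -0.42 to 0.41 and -0.39 to 0.37. The other neighbours were Krt12 and Krt23 (beside Krt20), Krt6a and Krt71 (beside Krt5), Krt16 (between Krt14 and Krt17) and Krt42 (beside Krt17).

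Krt42 read 6.74, 6.57 and 6.55 in control and 6.83, 6.86 and 7.31 in overexpression, so the groups were 0.09 apart. It had the smallest adjusted p of the 44 (0.115), and passed with genes under the median signal left out (0.0292) and with a trended and robust variance prior (0.0342). Krt23, a type I keratin, read 4.78, 4.90 and 4.87 in control and 4.54, 4.52 and 4.75 in overexpression (-0.25 ± 0.0858, adjusted p = 0.116), and was called lower without overexpression replicate 3 (0.0478). Krt84, a hair keratin, was at 0.22 (adjusted p = 0.125) and was called higher under quantile normalization (0.0485). Krt14, Krt16, Krt17 and Krt42 are similar in sequence, as are Krt5, Krt6a and Krt6b. Whether their probes share signal was not tested.

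**Figure D4:**
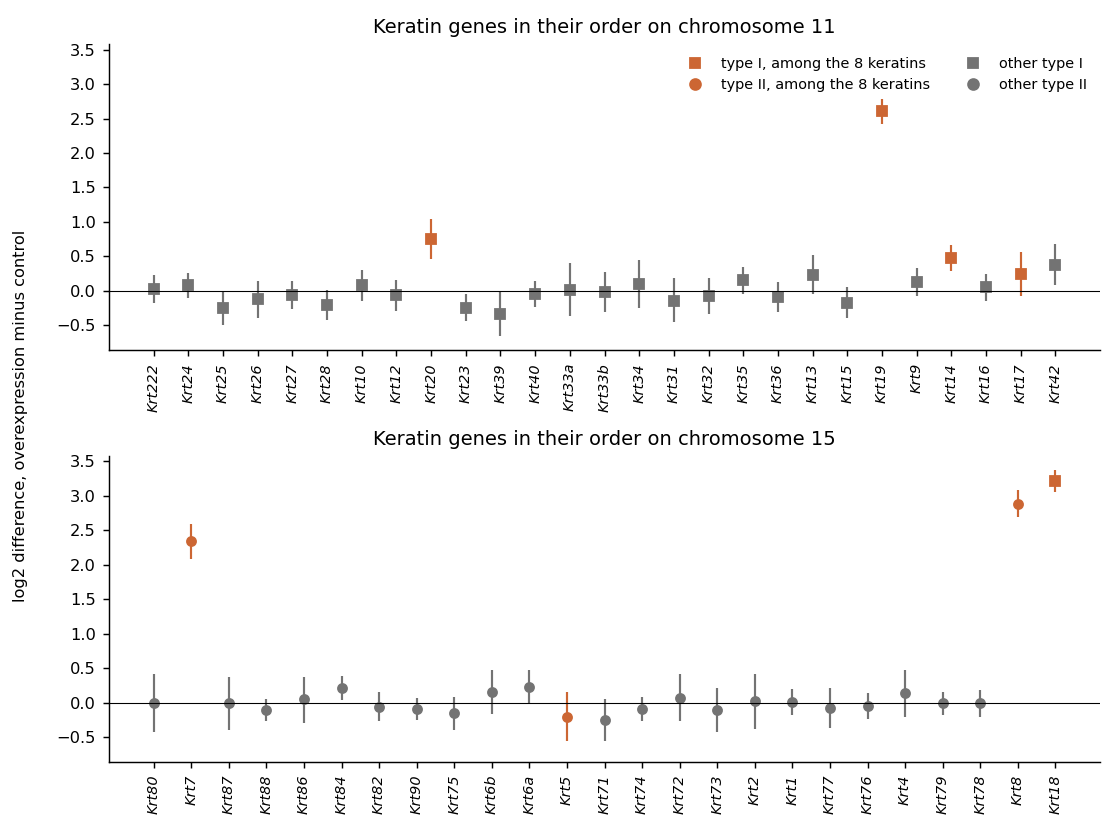
Log2 difference, overexpression minus control (vertical axis), of the keratin genes measured on chromosome 11 (27 genes) and chromosome 15 (25 genes), in gene order without distances. Points are estimates and bars 95% intervals, squares are type I and circles type II, with the 8 keratins in orange; Krt19 (2.61), Krt7 (2.34), Krt8 (2.89) and Krt18 (3.22) stand above the 44 other keratin genes, which lie between -0.34 and 0.38.

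Keratin filaments are held at desmosomes, at hemidesmosomes and by linker proteins. Of 24 genes for such anchors and binding proteins, 11 rose, 1 fell and 12 did not pass, with a median difference of 0.187 (all genes: 0). For this list and each list that follows, the shares over all genes were 7.05% higher and 3.25% lower. Dsp, desmoplakin, which ties keratin to the desmosome, read 6.56, 6.51 and 6.76 in control and 8.74, 8.73 and 8.55 in overexpression. Its groups were far apart, and the rise was 2.06 ± 0.0936 (adjusted p = 5.35e-06). The desmosomal cadherins Dsc2 and Dsg2 rose by 1.50 and 0.40, and the desmosomal plaque genes Pkp2, Pkp3 and Jup by 0.88, 0.30 and 0.51. The other plakophilins, Pkp1 and Pkp4, were at -0.11 and -0.20 without passing, with all overexpression arrays of Pkp4 below the controls. Control Dsc2 (5.13) was within the olfactory receptor range. Plec, plectin, which links intermediate filaments to other structures, rose by 1.26 ± 0.0976, and Sfn, a 14-3-3 protein that binds keratins, by 1.08 ± 0.0827. Sfn had 2 single-gene probe sets, of which only the brighter is given here. The hemidesmosome-related Itga6 and Cd151 rose by 0.55 and 0.86, while Itgb4 was at 0.08 and Col17a1 at -0.08 without passing. Dst, a gene whose epithelial product anchors keratin at hemidesmosomes, fell by 0.40 (adjusted p = 0.00712). Ppl, periplakin, rose by 0.26, and Evpl and Eppk1, its relatives of the plakin family, were at -0.08 and 0.16 without passing.

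Of 24 measured genes for epithelial surface and junction proteins, 13 rose and 11 did not pass, with a median of 0.398. Cldn4, a tight junction claudin, read 8.65, 8.74 and 8.77 in control and 10.24, 10.16 and 10.24 in overexpression. No array of either group reached the other, and the rise was 1.49 ± 0.0716 (adjusted p = 7.10e-06). Cldn6, a claudin of early embryonic epithelia, rose by 1.25, the desmosome-associated Perp by 1.01 and the membrane protease gene Prss8 by 0.73. Cdh1, the E-cadherin gene, rose by 0.45 from a control mean of 10.15 ± 0.01 (SD, n = 3). Epcam, an epithelial surface protein that ES cells also carry, was at -0.07, and the tight junction genes Ocln and Tjp1 were at 0.15 and 0.24, without passing.

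Of 27 measured genes for transcription factors of epithelia or known to act on keratin genes, 4 rose, 1 fell and 22 did not pass, with a median of -0.00667. The rises were those of Ets1 (1.62 ± 0.0965, adjusted p = 2.15e-05), Ets2 (0.55 ± 0.0994), the AP-1 subunit gene Jun (0.73 ± 0.0886) and Klf6 (0.75 ± 0.0822). Trp73, a p53 relative, fell by 0.47 (adjusted p = 0.00619). Ets1 read 5.10, 5.43 and 5.19 in control and 6.83, 6.83 and 6.93 in overexpression, with no overlap. Among the 22 that did not pass, Gata3 (0.52, adjusted p = 0.0593), Cdx2 (0.26, 0.081) and the AP-1 subunit gene Fosl1 (0.17, 0.242) had all overexpression arrays above the controls, and Grhl3 (-0.18, 0.161) and Tfap2c (-0.22, 0.0876) had them below. Klf5 was at 0.07, Grhl2 at 0.02 and Trp63, the basal epithelial factor, at -0.13. Of the 27, 7 had overexpression means within the olfactory receptor range (Ovol1, Trp63, Tfap2a, Tfap2b, Ehf, Elf5 and Foxa1).

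**Figure D5:**
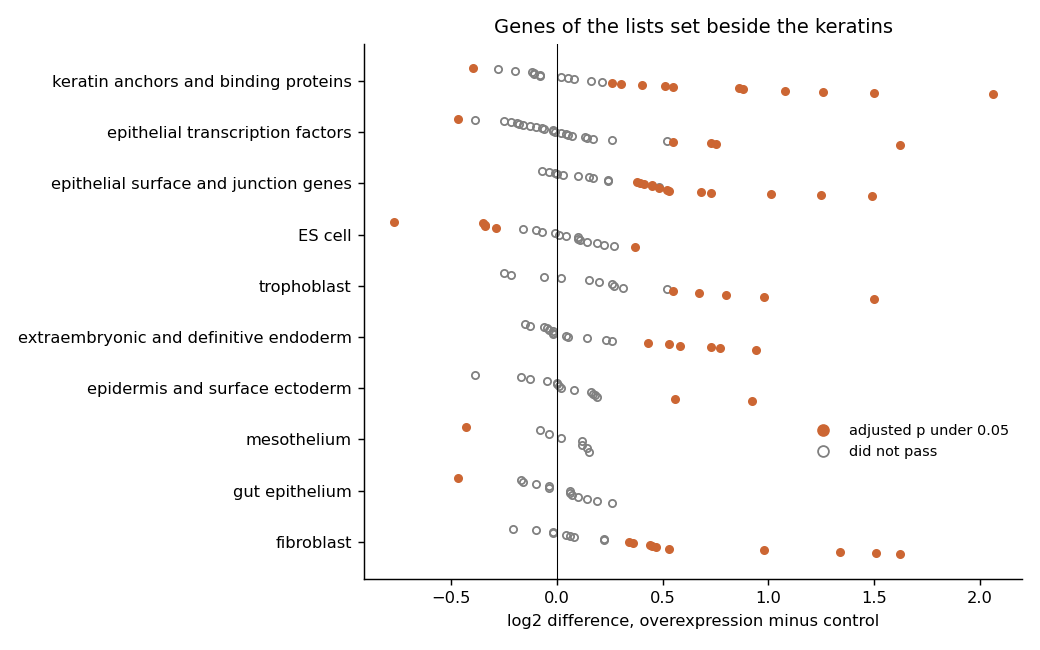
Log2 difference, overexpression minus control (horizontal axis), of each measured gene in the lists set beside the keratins (rows), leaving out the 8 keratins themselves. Filled points passed at an adjusted p under 0.05 and open points did not; in the anchor list 11 genes rose, led by Dsp at 2.06, in the surface and junction list 13 rose, led by Cldn4 at 1.49, and in the transcription factor list 4 rose, led by Ets1 at 1.62.

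Keratins of simple epithelia also mark cell types that ES cultures can form or hold, so markers of those types were read on the same arrays. In bulk RNA, fewer cells of a type and less RNA per cell cannot be told apart. The ES cell markers themselves were present, with 0 of 19 in the olfactory receptor range. Of the 19, 1 rose and 5 fell, their median was 0.00667, and their summed linear signal was 28762 to 29873 in control and 27793 to 28117 in overexpression. Fbxo15, an ES cell F-box gene, fell by 0.77, and Tdgf1, Nanog, Dnmt3l and Sox2 fell by 0.35, 0.34, 0.34 and 0.29, while Tfcp2l1 rose by 0.37. Pou5f1, which encodes Oct4, did not pass (0.19 ± 0.0789, adjusted p = 0.19).

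Of 15 measured trophoblast markers, 5 rose and 10 did not pass (median 0.267), with a summed signal of 736 to 773 in control and 1008 to 1075 in overexpression. Bmp8b (1.50), Hand1 (0.98), Plac1 (0.80, from a control mean of 4.93 within the olfactory receptor range), Tead4 (0.67) and Eomes (0.55) rose, and Cdx2, a defining factor of the lineage, was at 0.26 (adjusted p = 0.081). The defining factor Elf5 and the placental genes Tpbpa, Psg17, Ctsq and Esx1 had overexpression means within the olfactory receptor range. Of 19 endoderm markers, 6 rose and 13 did not pass (median 0.0467), with a summed signal of 1267 to 1293 in control and 1567 to 1630 in overexpression. Cubn (0.94), Dab2 (0.77, the brighter of 2 probe sets), Plat (0.73) and Sox17 (0.58) had the largest of these rises. The others were those of Lamb1 (0.53, from a bright control mean of 8.56) and the endoderm factor Gata6 (0.43). Lamb1 was the brightest of the 19 in both groups and weighs most in their summed signal. Control Cubn, Plat and Sox17 lay within the olfactory receptor range, as did Afp, Ttr, Apob, Cer1 and Foxa1 in overexpression. The part of either cell type in the keratin rises was not tested.

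Of 15 epidermal markers, Sprr1a (0.92) and Tgm1 (0.56), which serve the cornified envelope, rose and 13 did not pass (median 0.02), with a summed signal of 705 to 717 in control and 815 to 919 in overexpression. Tgm1 was the brightest of the 15 in both groups (means 7.81 and 8.37) and weighs most in that linear sum, which therefore shows no shift of the whole list. In overexpression 8 of the 15 lay within the olfactory receptor range (Trp63, Krt1, Ivl, Lor, Sprr1b, Dsg3, Dsc3 and Calml3). Besides the 2 that rose, Krt10 (5.87), Krt15 (5.24), Tgm3 (6.13), Lgals7 (5.47) and Sbsn (5.62) lay above it. Of 10 mesothelial markers, Krt7 and Krt19 themselves were the only rises and Lrrn4 fell by 0.43, with a summed signal of 482 to 510 in control and 1304 to 1454 in overexpression. Without those 2 keratins, the other 8 summed to 292 to 326 in control and 299 to 317 in overexpression, ranges that overlap. Msln (0.12), Upk3b (0.15) and Wt1 (0.14) did not pass, and Upk3b, Upk1b, Muc16, Gpm6a and Bnc1 lay within that range. Of 14 gut markers, Krt20 was the only rise and Lgals4 fell by 0.47, with a summed signal of 751 to 762 in control and 738 to 805 in overexpression (731 to 738 and 703 to 772 without Krt20). In overexpression the gut genes Vil1, Fabp1, Fabp2, Cdh17 and Muc2 lay within the olfactory receptor range, as did Lgals4, Muc13, Phgr1 and Lgr5. Besides Krt20, Gpa33 (8.42), Cdx1 (6.64), Cdx2 (5.95) and Tff3 (5.68) lay above it and did not pass. Gpa33 was the brightest of the list.

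Of 19 fibroblast markers, 10 rose and 9 did not pass (median 0.34), with a summed signal of 2172 to 2194 in control and 4998 to 5241 in overexpression. Vim, the intermediate filament of mesenchymal cells, which ES cells also make, rose by 1.62 from a control mean of 10.29 ± 0.0153 (SD, n = 3). It had by far the highest mean of the 19, at 11.91 in overexpression, where Col1a1 came next at 7.79. The summed linear signal therefore mostly follows Vim. Lox (1.51), Col1a1 (1.34) and Col1a2 (0.98), genes of collagen and its crosslinking, rose as well. The other rises were those of Mmp2 (0.53), Pdgfrb (0.47), Twist2 (0.45), Dcn (0.44, adjusted p = 0.0366), Col3a1 (0.36) and Col5a1 (0.34). Dcn had means within the olfactory receptor range in both groups, Lox (4.19) in control, and Lum, Postn, Prrx1, S100a4 and Fap, which did not pass, in both. The part of fibroblasts in the keratin rises was not tested.

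The genes most like each core keratin were found by the root mean square difference of log2 profiles over the 6 arrays, each profile taken minus its own control mean. Krt18 was nearest to the smooth muscle gene Tagln, at 0.0802, followed by Anxa5 (0.204), Ptgs2 (0.207), Gsn (0.222) and its partner Krt8 (0.246). Krt8 was nearest to Anxa5, a phospholipid-binding annexin, at 0.0673, and to Gsn, which severs actin filaments, at 0.0696, with Ptgs2, Thbs1 and Anxa2 next (0.168 to 0.204). Krt18 was not among the 5 nearest of Krt8. Krt19 was nearest to Thbs1, a matrix glycoprotein, at 0.0707, and to Cryab, a small heat shock protein that binds intermediate filaments, at 0.0709, with Anxa2, Slc25a24 and Prss23 next (0.0979 to 0.129). Krt7 was nearest to Csrp1, a LIM domain protein of actin filaments, at 0.166, followed by Igfbp4 (0.168), Lgals1 (0.172), Anxa1 (0.179) and Anxa3 (0.185). With 2 groups of 3 arrays, this measure follows the size of the rise above all, and it is given as a description.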

How the data were processed

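RNA of 6 HM1 cell samples (3 control, 3 Prmt6 overexpression) was measured on 1 Affymetrix array each. The authors deposited log2 signals per probe set, rounded to 2 decimals, made with RMA per the submitters' processing notes. RMA corrects background, equalizes array distributions and summarizes probes, so it takes out most of any shift common to the majority of genes. Software, settings and build: not given in the sources used here. Detection calls were not used here, and the precision is limited by the 6 arrays.

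Names came from the platform annotation of 2016: of 35556 probe sets, 21789 had 1 symbol, 1621 several (0 of these a keratin described here) and 12146 were unnamed. Of a gene's single-symbol probe sets the brightest on average was taken, which gave 19938 genes. Neighbours came from RefSeq GRCm38.p6, which matched 19856 genes by gene identifier.

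Groups were compared with limma 3.58.1 in R 4.3.3 (lmFit, eBayes, two-sided, no covariates), with Benjamini-Hochberg adjustment over all genes and a threshold of 0.05. Intervals are 95%. Simulated data (19938 genes, 5 runs) had independent normal noise at each gene's own spread and 50 genes raised by each of 0.3, 0.5, 1 and 2 (log2). The fit recovered 6.8%, 44.4%, 90.4% and 98.8% of these, and 3.67% of its calls were unchanged genes. Far fewer genes were changed there than were called in the data (1405 higher, 647 lower). The adjustment depends on that share, so these recoveries need not hold for the data.

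The keratins and gene lists were chosen with earlier results of these data known. Genes named are the 8 keratins, Prmt6, adjacent genes, up to 4 passing genes per list with the largest change (or the smallest p), and the 5 nearest profiles of Krt18, Krt8, Krt19 and Krt7; further list members were named after their values were seen. Deviations of same-numbered arrays had correlations of -0.019, -0.016 and -0.117, and those of differently numbered arrays ran from -0.100 to 0.114. No large shared deviation was seen, but so few arrays cannot settle whether the numbers pair the samples. Alternatives were a replicate block, each array left out, filters at the 30th percentile and the median, median centring, quantile normalization, averaging probe sets per gene and a trended and robust prior. Plots used matplotlib 3.10.9 (Python 3.11.15).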

Additional observations from a re-analysis of the deposited data

How the results depend on the processing

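All 13 alternatives were run. Krt18, Krt8, Krt19 and Krt7 kept their direction and stayed past the threshold in all 13, with the highest adjusted p at 0.000302 (Krt7). Krt20 did so in the 12 that kept it (0.62 to 0.84, adjusted p up to 0.0295), as did Krt14 (0.42 to 0.53, up to 0.0432). Krt17 (0.13 to 0.38) and Krt5 (-0.34 to -0.01) passed in none of theirs. Leaving out genes under the median dropped Krt20, Krt14, Krt17 and Krt5, so 4 keratins were called there, and leaving out those under the 30th percentile dropped Krt5. Leaving out 1 array gave 6 keratins called higher and 0 lower each time, and differences of 2.27 to 2.46 for Krt7, 2.82 to 2.94 for Krt8, 3.19 to 3.25 for Krt18 and 2.56 to 2.66 for Krt19. In an alternative added after the data were seen, the change within pairs with 1 array left out was -0.40 to -0.28 for Krt8 minus Krt18, -0.36 to -0.10 for Krt7 minus Krt19 (-0.10 without control replicate 1) and -0.84 to -0.43 for Krt5 minus Krt14 (-0.43 without overexpression replicate 1), where all arrays gave -0.68 but Krt5 was not above background; these have no test.

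Over all genes, rises numbered 1405, and 862 to 1232 with 1 array left out (862 without control replicate 1, 898 without control replicate 3). They numbered 1838 with median centring, 1832 with the filter at the 30th percentile and 1937 with the filter at the median. A trended and robust prior gave 2061 rises, the most of the 13 alternatives. Falls numbered 647, and 280 to 763 with 1 array left out (280, 321 and 297 without control replicates 1, 2 and 3, 328 without overexpression replicate 2), 990 with the filter at the 30th percentile, 1079 with the filter at the median and 1115 with a trended and robust prior; the cause was not tested. With the replicate block there were 383 falls, and Prmt6 (0.50) no longer passed. Whether the numbers pair the samples is not known, and the block changed no call of the 8 keratins. Median centring moved the share of rises among calls from 68.5% to 80.4% and the median of all genes by 0.0467. Dim signal limits Krt5 in both groups and Krt20 in control, where the array cannot separate a low level from background. Control Krt14 was only 0.03 above the olfactory receptor range. Krt17 was above it in both groups, by 0.38 in control and 0.68 in overexpression.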
